A study of Mus musculus with 7 samples.

Results

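The regions described here are 2959 stretches of chromatin that were called open on every doxycycline day of reprogramming but neither in the starting fibroblasts nor in embryonic stem cells. They were selected on the ATAC-seq peak calls themselves. Touching or overlapping peaks of all 7 libraries were merged into 104346 regions, and those with a peak on Day1, Day2, Day3, Day6 and Day9 and none on Day0 or in ESCs were kept, which is 2.84% of all merged regions. Their number, their width and their peaks are therefore descriptions of the calls that chose them, whereas their position in the genome and their sequence were not used to choose them.

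ATAC-seq marks open chromatin by the places where the transposase Tn5 can cut nuclear DNA. The fibroblasts (MEFs), prepared from mid-gestation embryos, carried a tetracycline-responsive cassette for the 4 factors Oct4, Klf4, Sox2 and c-Myc (OKSM) at the *Col1a1* locus (Col1a1tm1(tetO-Pou5f1,-Klf4,-Sox2,-Myc)Hoch) and the rtTA*M2 transactivator at ROSA26 (Gt(ROSA)26Sortm1(rtTA*M2)Jae), so that doxycycline switched the factors on in all cells that answer to it, whether or not they reached pluripotency. Day0 MEFs had the same alleles and no doxycycline, the Day1 to Day9 libraries received doxycycline at 2 µg/mL, and the ESCs, labelled as the Bruce-4 line but with the genotype entry of the MEFs, were untreated. Per the study's methods, the culture was moved to ESC medium once colonies appeared, shortly before Day9. Each time-point has 1 library, so that no spread between replicates and no test between time-points can be given, and intervals below are exact (Clopper-Pearson) 95% intervals that cover counting error over regions or windows only. In these bulk samples, a region open in few cells and a region weakly open in all cells cannot be told apart.

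Oct4, Sox2 and Klf4 are known to bind many closed sites of fibroblast chromatin early in reprogramming, while AP-1 factors such as Jun hold fibroblast enhancers open. Most elements that are open in a given cell type are enhancers away from promoters, and a share of the elements opened during reprogramming belongs to neither the starting nor the final cell type. During the early phase fibroblasts lose mesenchymal and gain epithelial features, the mesenchymal-to-epithelial transition, before the pluripotency network is switched on.

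The labels of the libraries at both ends bear on the rule and were checked at the promoters of 8 marker genes of each cell type. In the Day0 library 6 of 8 MEF markers had a peak within 1000 bp of their start site, with *Prrx1* and *Postn* lacking one, against 2 of 8 in ESCs (*Twist1* and *Snai2*). Of the ESC markers, only *Zfp42* had such a peak in the ESC library, while *Nanog*, *Pou5f1*, *Esrrb*, *Tfcp2l1*, *Dppa4*, *Tdgf1* and *Utf1* had none. The Day0 library had one at 3 of them (*Pou5f1*, *Tfcp2l1* and *Utf1*). The ESC list is also the shortest of the 7, with 27074 peaks against 33007 to 61241 in the others, so that the absence of an ESC peak at a member rests on a library whose defining promoters were mostly not called.

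Sequences are shown for 7 members that the text returns to, as 200 bp windows centred on the stretch covered by peaks of the most libraries, read 5′ to 3′ on the plus strand of mm10 (RefSeq's GRCm38 sequence). The first 4 belong to the 10 members with the longest stretch open on all 5 days, namely the longest one and the 3 that hold one of the 4 motifs shown in capitals. The next pair overlaps putative reprogramming-inducible enhancers of the study. Another such member, near *Plekhh1*, holds none of the 4 motifs in its window and is not shown. The last window lies in *Col1a1*, whose locus carries the cassette. Capitals mark matches to the AP-1 motif TGANTCA, the Krüppel-like factor (KLF) motif GGGNGTGG, the octamer (OCT) motif ATGCAAAT and the SOX motif AACAATG, searched on both strands.
Upstream of *Fmod*, chr1:133986116-133986315: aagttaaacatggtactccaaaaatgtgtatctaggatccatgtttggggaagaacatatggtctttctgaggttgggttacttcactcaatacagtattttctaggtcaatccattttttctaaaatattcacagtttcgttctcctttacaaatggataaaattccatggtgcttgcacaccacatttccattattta
*Atp8a1* intron near *Shisa3*, chr5:67633598-67633797: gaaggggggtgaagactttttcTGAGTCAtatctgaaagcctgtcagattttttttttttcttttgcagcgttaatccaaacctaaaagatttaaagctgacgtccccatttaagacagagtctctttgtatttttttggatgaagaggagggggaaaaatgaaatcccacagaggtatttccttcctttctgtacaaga
*Taf1b* intron near *Grhl1*, chr12:24536221-24536420: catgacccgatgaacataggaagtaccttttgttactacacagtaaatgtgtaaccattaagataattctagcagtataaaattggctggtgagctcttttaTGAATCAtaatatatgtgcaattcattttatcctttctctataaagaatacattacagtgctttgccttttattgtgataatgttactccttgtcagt
Upstream of *Mgmt*, chr7:136607133-136607332: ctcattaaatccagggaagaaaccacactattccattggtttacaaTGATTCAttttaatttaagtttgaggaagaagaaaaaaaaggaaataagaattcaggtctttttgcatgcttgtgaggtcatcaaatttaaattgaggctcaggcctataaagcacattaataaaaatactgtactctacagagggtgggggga
Upstream of *Lefty1*, chr1:180933962-180934161: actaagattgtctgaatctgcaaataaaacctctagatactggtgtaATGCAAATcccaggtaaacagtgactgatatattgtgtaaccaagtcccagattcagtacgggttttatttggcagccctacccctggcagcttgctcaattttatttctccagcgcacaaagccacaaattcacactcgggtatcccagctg
*Sema4b* intron, chr7:80188917-80189116: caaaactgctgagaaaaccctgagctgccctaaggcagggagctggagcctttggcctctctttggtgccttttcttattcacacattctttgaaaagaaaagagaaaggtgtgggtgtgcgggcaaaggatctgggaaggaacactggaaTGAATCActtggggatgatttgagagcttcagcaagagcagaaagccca
*Col1a1* near its start, chr11:94937064-94937263: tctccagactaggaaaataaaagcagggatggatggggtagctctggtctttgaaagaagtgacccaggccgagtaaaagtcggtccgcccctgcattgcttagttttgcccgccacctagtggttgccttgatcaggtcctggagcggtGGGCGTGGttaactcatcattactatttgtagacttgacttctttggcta

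None of the 4 motifs occurs in the window upstream of *Fmod*, and each of the other 6 windows holds 1 match. The windows near *Shisa3*, *Grhl1*, *Mgmt* and *Sema4b* hold AP-1 matches, the *Lefty1* window holds a full octamer and the *Col1a1* window a KLF match.

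The members were the most persistent end of a much larger set of transient regions, which here means regions with a peak on at least 1 doxycycline day and none on Day0 or in ESCs. Of 32025 such regions, 17840 had a peak on a single day, 5630 on 2 days, 3260 on 3 days, 2336 on 4 days and 2959 on all 5. The number thus fell from 1 to 4 days and was higher again at 5 days, where a single pattern of libraries held more regions than the 5 patterns of 4 days together. Members were 9.24% of the transient regions (8.92 to 9.56) and 15.5% (15.0 to 16.0) of the 19131 regions with a peak on every doxycycline day. Persistence went with width. The median width of the merged region was 207 bp for regions seen on 1 day and 671 bp for the members, a region seen on more days being merged from more peaks.

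**Figure D1:**
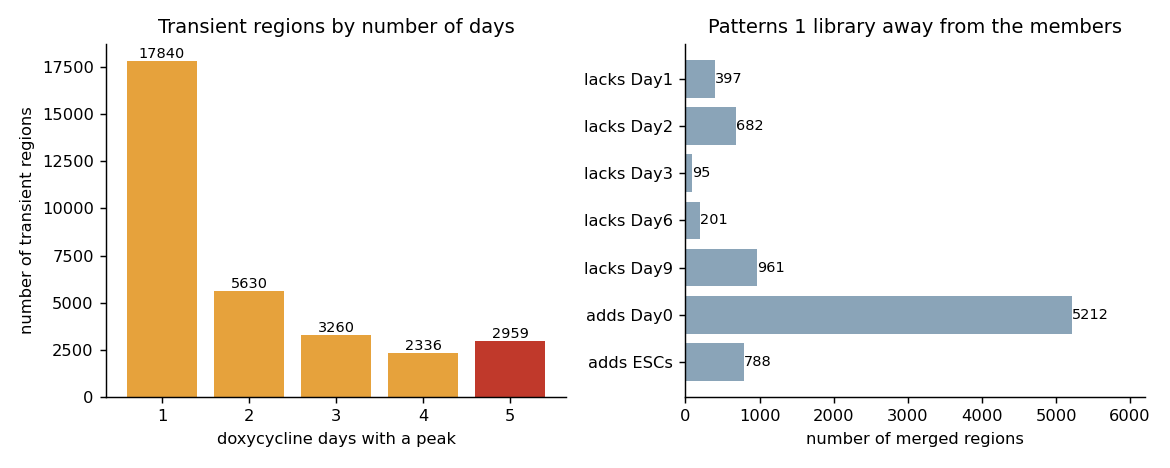
The left panel plots the number of transient regions (y axis) against the number of doxycycline days on which they had a peak (x axis), with the 2959 members in red. The right panel plots, as bars, the number of merged regions whose pattern differs from that of the members in 1 library, which ranges from 95 regions that lack only Day3 to 5212 regions that add Day0.

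Which call kept a region out of the set differed between the libraries. Among transient regions open on 4 days, 961 lacked only Day9, 682 lacked only Day2, 397 lacked only Day1, 201 lacked only Day6 and 95 lacked only Day3. The order follows the length of the peak lists for the extremes, since Day9 and Day2 had the fewest peaks of the doxycycline libraries and Day3 the most, and the part of list length in these numbers was not tested. At the ends of the time course, 5212 regions differed from the members by a Day0 peak, against 788 that differed by an ESC peak, and these are called below the regions shared with Day0 and the regions shared with ESCs. The added peaks were not mostly marginal: their median width was 546 bp on Day0 and 428.5 bp in ESCs, and 5.62% and 12.0% of them had the smallest width called, 200 bp.

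Just inside the rule lay members that nearly touched a Day0 or ESC peak. The nearest was a member 1221 bp upstream of *Cdc42bpg*, a kinase that acts downstream of Cdc42, which ended 5 bp from a Day0 peak. The next 4 were at *Sh3bp4* (14 bp from an ESC peak), *Pyroxd2* (28 bp from a Day0 peak), *Frmd4b* (39 bp from a Day0 peak) and *Arhgef37* (45 bp from a Day0 peak). Such cases were few. Within 500 bp, 105 members (3.55%) had a Day0 peak and 36 (1.22%) an ESC peak, the median distance to the nearest Day0 peak was 9850 bp and that to the nearest ESC peak 27932 bp, and 1919 members (64.9%) were more than 5 kb from any peak of either library.

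Within the members, the peaks were widest on Day3 and narrowest on Day9 and Day2. The median number of bases covered per member was 520 bp on Day1, 467 bp on Day2, 561 bp on Day3, 537 bp on Day6 and 451 bp on Day9. Day3 held the widest cover in 972 members (32.8%) and Day9 the narrowest in 948 (32.0%), and Day2 was the narrowest in a further 863 (29.2%). The step from Day6 to Day9 was a narrowing in 69.1% of the members (67.4 to 70.7), with a median change of -66 bp. Day9 also had the shortest peak list of the doxycycline libraries and the changed medium, and the part of either in the narrowing was not tested.

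Nearly the same order of days was seen in the regions that were also open on Day0. These covered 542.5 bp on Day1, 466 bp on Day2, 563 bp on Day3, 552 bp on Day6 and 466 bp on Day9, and 73.1% of them (71.9 to 74.3) narrowed from Day6 to Day9. In the regions open in all 7 libraries the share was 72.1%, and in those open on every doxycycline day and in ESCs 69.9%. The narrowing towards Day9 was thus at least as frequent outside the members as within them. From Day3 to Day6, 57.0% of the members narrowed in these calls (55.2 to 58.8). The share was 52.6% of regions shared with Day0 (51.2 to 54.0) and 50.1% of those shared with ESCs (46.6 to 53.7). Of the regions open in all 7 libraries, 43.5% narrowed (42.6 to 44.5). The widths come from the same calls that defined the classes, and the intervals cover counting over regions only. Without replicate libraries, whether the classes differ in either step beyond these libraries was not tested.

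**Figure D2:**
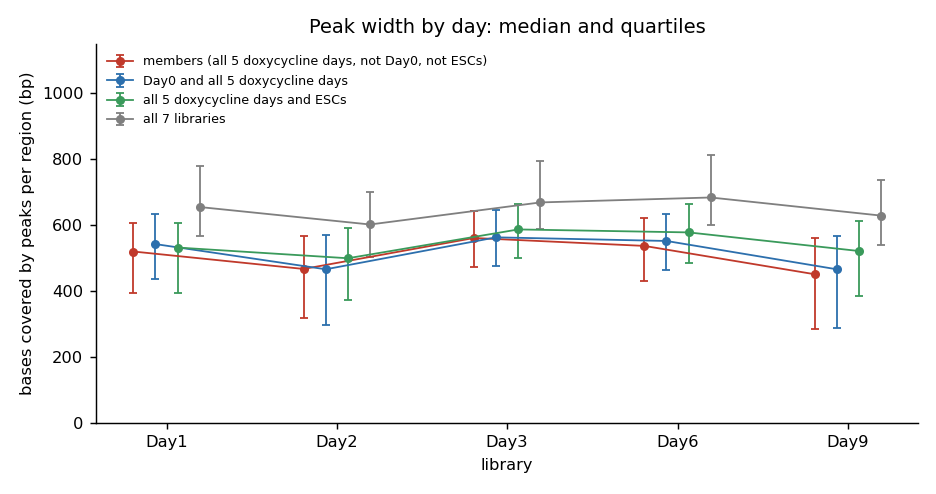
Points give the median number of bases covered by peaks per region (y axis, bp) in each doxycycline library (x axis), and bars the quartiles over regions, for the members and the 3 other classes with a peak on every doxycycline day. All 4 classes are narrower on Day2 than on Day1 and Day3 and narrower on Day9 than on Day6, and the members run close to the regions shared with Day0.

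The peaks of different days lay over the same bases in most members. A stretch covered on all 5 days was present in 2613 members (88.3%, 87.1 to 89.4), against 87.1% of regions shared with Day0, 90.4% of those shared with ESCs and 96.8% of those open in all 7 libraries. Its median length was 220 bp and its longest 996 bp. In 346 members no base was covered on all 5 days, although peaks of 4 libraries met over a base in 323 of them and peaks of 3 libraries in the other 23. Pairwise, the bases shared by 2 days as a fraction of those covered on either were highest for Day3 and Day6 (median 0.764) and lowest for Day2 and Day9 (median 0.602), and 97.1 to 98.9% of the members had at least 1 shared base in any pair of days.

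The 10 members with the longest stretch open on all 5 days were distal or intronic. The longest lay 50511 bp upstream of *Fmod*, which encodes the collagen-binding matrix protein fibromodulin, in no annotated gene (chr1:133985616-133986743), with peaks of 1010 bp on Day1, 1102 bp on Day2, 1123 bp on Day3, 1119 bp on Day6 and 1038 bp on Day9. All 5 peaks shared 996 bp, so that nearly the whole region was open throughout. An intron of *Arpp21*, whose product is a cyclic AMP-regulated phosphoprotein of neurons, held the next, with peaks of 901, 844, 916, 941 and 929 bp and 807 shared bases.

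The others had shared stretches of 741 to 783 bp. They lay in introns of *Atp8a1* (a phospholipid flippase, with the start of *Shisa3* the nearest), *Slc29a3* (a nucleoside transporter), *Gnaq* (the Gq alpha subunit), *Taf1b* (a subunit of the RNA polymerase I factor SL1, with *Grhl1* the nearest start), *Vps13d* (a lipid transfer protein) and *Rhobtb1*, and outside genes near *Mgmt*, which repairs alkylated guanine, and *Ang5*, a member of the angiogenin ribonuclease family. In the *Taf1b* intron the peaks measured 763 bp on Day1, 853 bp on Day2, 927 bp on Day3, 954 bp on Day6 and 950 bp on Day9. This member sat 35424 bp upstream of *Grhl1*, a grainyhead-like factor of epithelial cells, and 10388 bp from the nearest Day0 peak. The one in the *Gnaq* intron measured 818, 919, 843, 828 and 766 bp on the same days, with its narrowest peak on Day9 and a Day0 peak 1372 bp away.

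Under the main calls, members were further from promoters than any class they were compared with. A region was called TSS-proximal when it came within 1000 bp of the start of a protein-coding gene, and 65 of 2957 members on annotated chromosomes were, which is 2.20% (1.70 to 2.79). The share was 4.63% (4.40 to 4.88) in the other transient regions, 4.59% (3.23 to 6.29) in the regions shared with ESCs, 15.7% (14.7 to 16.7) in those shared with Day0 and 73.4% (72.5 to 74.2) in those open in all 7 libraries, and none of these intervals overlapped that of the members. Besides the TSS-proximal ones, 196 members (6.63%) touched an exon, 1352 (45.7%) lay in introns alone and 1344 (45.5%) between genes. The median distance to the nearest protein-coding start was 49695 bp in the members, 40291.5 bp in the other transient regions, 35828 bp in the regions shared with ESCs and 27859 bp in those shared with Day0.

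**Figure D3:**
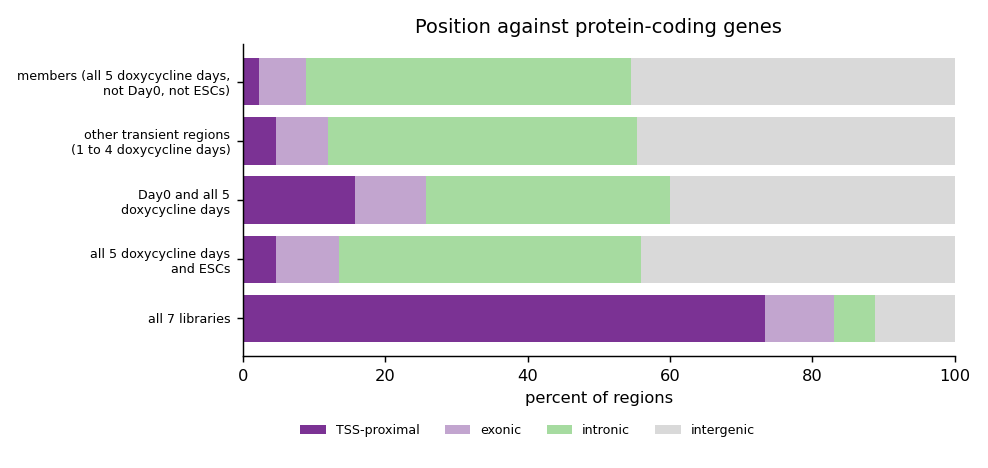
Bars give the percentage of regions (x axis) that were TSS-proximal, exonic, intronic or intergenic in the members and 4 other classes (y axis). The TSS-proximal part is 2.20% of the members and 73.4% of the regions open in all 7 libraries.

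The 65 TSS-proximal members belonged to 65 genes, and 29 of them covered the start itself. At 42 of these genes neither a Day0 nor an ESC peak lay within 1000 bp of the start, while 20 had another Day0 peak and 11 another ESC peak there. Some members at the 42 genes did not reach the start, such as those at *Il25* (765 bp away) and *Lefty1* (634 bp away). The 5 with the longest shared stretch, picked after their values were seen, were *Card10*, *Prx*, *Bbox1*, *Nxpe2* and *Liph*, and all 5 belonged to the 42. *Prx* encodes periaxin, a protein of myelinating Schwann cells, and its start was covered by peaks of 611 bp on Day1, 586 bp on Day2, 593 bp on Day3, 642 bp on Day6 and 641 bp on Day9. *Card10*, an adaptor of NF-κB signalling, had peaks of 703, 1007, 897, 798 and 616 bp on these days. *Liph*, which encodes an extracellular lipase that makes lysophosphatidic acid, had peaks of 591, 584, 699, 653 and 597 bp over its start. *Bbox1*, the last enzyme of carnitine synthesis, had peaks of 536, 584, 593, 622 and 575 bp.

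Members lay on every autosome and on the X chromosome. The autosomes held 9.53 to 15.5 members per 10 Mb and the X chromosome 3.39. Merged regions of all kinds were also sparse on X, and members were 2.37% of those on X against 2.42 to 3.24% on the autosomes. Another member lay within 10 kb of 119 members (4.02%), and this share was not computed for any other class.

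The windows of the members held more OCT and SOX motifs and fewer AP-1 motifs than those of the regions shared with Day0. An OCT match was found in 160 of 2957 member windows, which is 5.41% (4.62 to 6.29), against 1.90% (1.55 to 2.31) of the regions shared with Day0, 3.15% (2.96 to 3.36) of the other transient regions and 2.05% of all merged regions. A SOX match occurred in 6.63% of the members (5.76 to 7.59), 3.28% (2.82 to 3.8) of the regions shared with Day0 and 4.63% (4.39 to 4.88) of the other transient regions. AP-1 matches were found in 12.4% of the members (11.2 to 13.7), 18.8% (17.7 to 19.9) of the regions shared with Day0 and 10.1% (9.78 to 10.5) of the other transient regions, and in 13.4% of all merged regions. For these 3 motifs the intervals of the members and of both classes did not overlap.

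The regions open on every doxycycline day and in ESCs had intervals that overlapped those of the members for AP-1, KLF, OCT and SOX. Their share was 6.24% (4.65 to 8.17) for OCT, 6.62% (4.99 to 8.60) for SOX, 10.8% (8.74 to 13.2) for AP-1 and 13.2% (11 to 15.8) for KLF, against 13.5% (12.3 to 14.8) for KLF in the members. In all, 20 motifs were searched, and those beyond these 4 that are named were picked after their shares were seen. The nuclear factor I half-site TTGGCA was found in 8.15% (6.34 to 10.3) of the windows shared with ESCs and in 16.3% (15 to 17.6) of the member windows. The regions shared with Day0 had this half-site in 15.1% (14.1 to 16.1), close to the members, and all merged regions in 11.8%.

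KLF and C/EBP motifs were also more frequent in the members than in most classes. The KLF share of 13.5% compares with 11.1% (10.2 to 11.9) in the regions shared with Day0, 10.2% in the other transient regions and 9.74% in all merged regions, but it was highest in the regions open in all 7 libraries, at 15.9%, most of which are promoters. The C/EBP motif TTGCNNAA, which liver, fat and myeloid factors bind, occurred in 13.3% (12.1 to 14.6) of the members, 11.2% (9.09 to 13.6) of the regions shared with ESCs, 9.50% (8.72 to 10.3) of those shared with Day0, 10.1% of the other transient regions and 9.26% of all merged regions. Motifs typical of promoters were rare. The ETS motif CCGGAAG was found in 0.947% of the members and in 12.4% of the regions open in all 7 libraries.

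A composite of an OCT and a SOX site, TTGTNATGC, occurred in 66 member windows, 2.23% (1.73 to 2.83), against 0.499% of the regions shared with Day0, 1.12% of the other transient regions, 3.44% (2.28 to 4.97) of the regions shared with ESCs and 0.926% of all merged regions. Its letters can overlap those of the OCT and SOX motifs, so that the 3 shares are not independent. Matches to 2 of the 4 motifs AP-1, KLF, OCT and SOX in 1 window were uncommon: 1962 windows (66.4%) held none of the 4, 872 (29.5%) held 1, 118 held 2 and 5 held 3. Of the 160 windows with OCT, 21 also held AP-1, 15 KLF and 9 SOX.

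**Figure D4:**
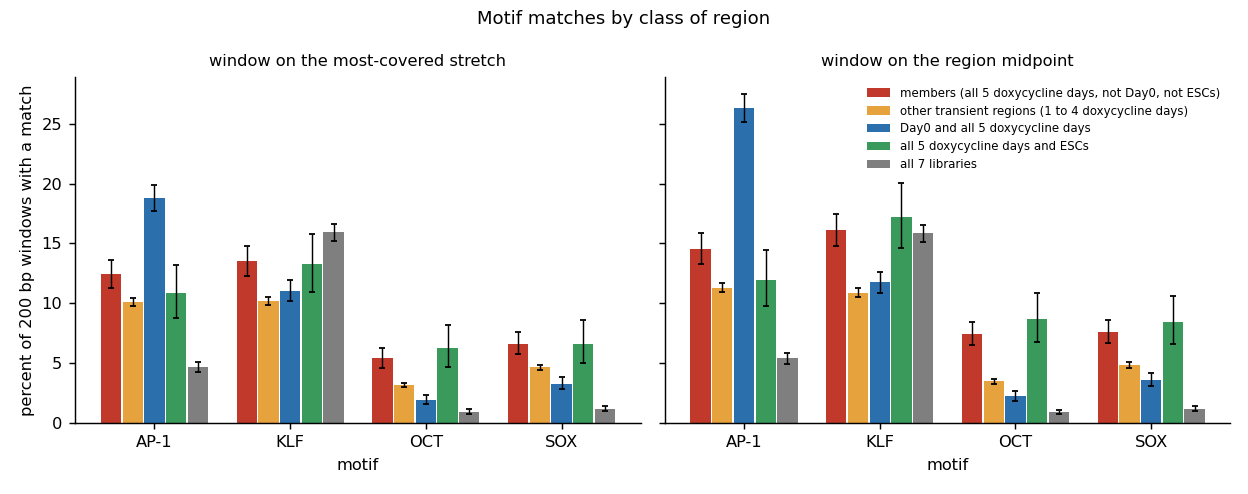
Bars give the percentage of 200 bp windows with a match to each motif (y axis) in 5 classes of region, with exact 95% intervals. The left panel places the window on the stretch covered by the most libraries and the right panel on the midpoint of the region. In both panels the members exceed the regions shared with Day0 for OCT and SOX and fall below them for AP-1.

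The position of the window changed the level of the shares but not the order between the members and the regions shared with Day0. With the window on the midpoint of the region, a median of 70.5 bp away, the member shares were 7.44% for OCT, 7.61% for SOX, 14.6% for AP-1 and 16.1% for KLF, and in the regions shared with Day0 they were 2.21%, 3.61%, 26.3% and 11.7%. All 4 motifs were thus found more often at the midpoint than at the stretch shared by the most libraries.

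In the members the matches were denser around the centre of the most-covered stretch than in its flanks. The rise was broad, with KLF at 0.724 to 0.801 matches per kb in the 100 bp bins within 200 bp of the centre. At a median region width of 671 bp, the flanks used below lie mostly outside the region. The OCT motif occurred at 0.304 matches per kb in the central 200 bp and at 0.0646 per kb between 500 and 1000 bp away on either side, a ratio of 4.71. For the other motifs the ratio was 2.31 for AP-1, 2.28 for KLF, 1.99 for SOX, 1.61 for C/EBP and 1.62 for the nuclear factor I half-site. In the regions shared with Day0 the order was another one, with a ratio of 3.8 for AP-1, 1.98 for OCT, 1.55 for KLF and 1.12 for SOX. The flanks of both classes had AP-1 at about the same density, 0.292 and 0.295 per kb. For that motif the classes thus differed at the centre. Member flanks were denser than those of the regions shared with Day0 for OCT (0.0646 against 0.0509 per kb) and SOX (0.179 against 0.153). For KLF they were sparser (0.345 against 0.409).

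**Figure D5:**
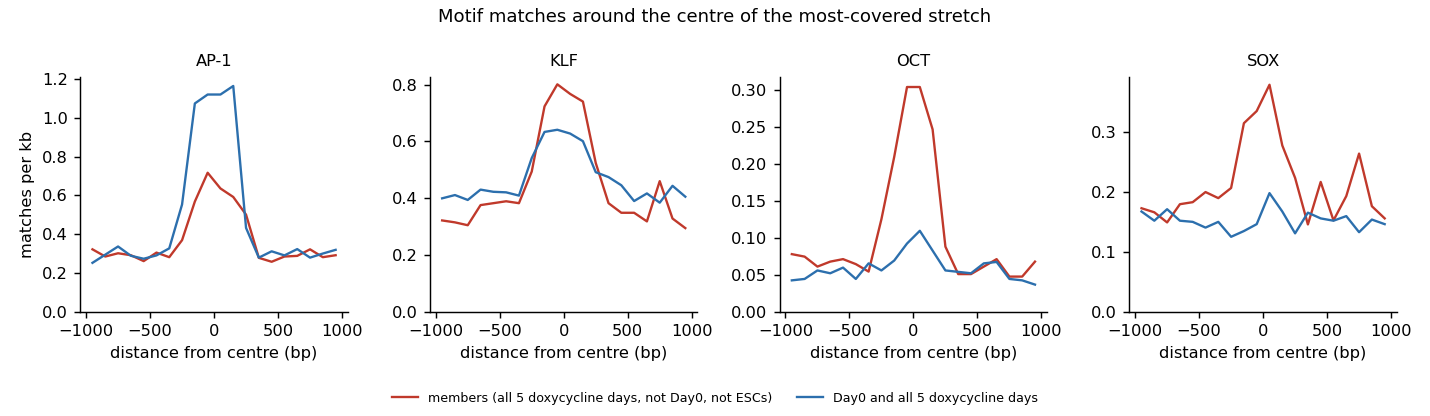
Lines give motif matches per kb (y axis) in 100 bp bins against the distance from the centre of the stretch covered by the most libraries (x axis, bp), for the members in red and the regions shared with Day0 in blue, with a separate y axis for each motif. The AP-1 peak is higher in the regions shared with Day0, and the OCT, SOX and KLF peaks are higher in the members.

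With the window on the most-covered stretch, OCT matches were more frequent in members whose days overlapped over a longer stretch. Among members with no base covered on all 5 days the share of windows with OCT was 2.89% (1.39 to 5.25), for a shared stretch under 200 bp it was 3.34% (2.33 to 4.61), for 200 bp to under 400 bp 5.18% (3.83 to 6.83) and for 400 bp or more 10.4% (8.15 to 13). AP-1 went from 11.3% without a shared base to 17.7% at 400 bp or more, and KLF from 12.1% to 17.7%. With the window on the region midpoint the differences were smaller. OCT was then found in 6.65% (4.26 to 9.81), 6.20% (4.81 to 7.83), 7.61% (5.97 to 9.53) and 9.62% (7.47 to 12.1) of the same groups, AP-1 in 13.3 to 16.0% and KLF in 15.7 to 16.5%. OCT and AP-1 were still highest at 400 bp or more, whereas KLF was lowest there. The intervals of the groups overlapped for all 3 motifs, and no trend was tested.

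The members were poor in G and C and in CpG dinucleotides. Their windows had a GC content of 44.9% ± 6.52 (SD over 2957 windows), against 46.2% in the other transient regions, 47.8% in the regions shared with ESCs, 51.3% in those shared with Day0, 64.2% in those open in all 7 libraries and 49.6% in all merged regions. A window held 2.07 CpGs on average, and 599 windows (20.3%) held none. The motif shares given above were not adjusted for base composition. Sequence that the reference marks as repeats made up at least 50% of the window in 5.95% (5.13 to 6.87) of the members and in 14.9% (12.5 to 17.6) of the regions shared with ESCs.

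When each member was assigned to the nearest protein-coding start, 2369 of 21951 protein-coding genes (10.8%) received at least 1 member. Of these, 1933 had 1 member, 324 had 2, 83 had 3, 19 had 4, 9 had 5 and 1 had 6. The share depended on the space around the gene. A gene's territory, the interval in which its start is the nearest one, had a median of 162 kb for genes with a member and 47.5 kb for all protein-coding genes, and the share of genes with a member rose from 1.55% for territories under 25 kb to 5.12% for 25 to 50 kb, 10.2% for 50 to 100 kb, 18.6% for 100 to 200 kb, 29.4% for 200 to 400 kb and 35.8% above that. The genes with a member more often had a peak within 1000 bp of their own start than protein-coding genes in general: 65.9% against 54.5% on Day0, 66.9% against 52.6% on Day6 and 55.2% against 46.0% in ESCs.

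*Itpr2*, the type 2 inositol trisphosphate receptor that releases calcium from the endoplasmic reticulum, had the most members. All 6 lay in its introns, 27680 to 218052 bp from its start, and 5 of them had a stretch shared by all days, of 75 to 616 bp. *Gnaq*, whose product couples receptors to phospholipase C upstream of the same receptor, had 5, all in its intronic sequence. *Plcl1*, a phospholipase C-like protein, had 5, of which 4 were in its introns. *Jun*, the AP-1 subunit, had 5 at 13726 to 197569 bp, with 1 downstream and 4 upstream of the gene and none inside it.

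The other genes with 5 members were *Agpat4* (an acyltransferase of phospholipid synthesis), *Nedd1* (which brings gamma-tubulin to the centrosome), *Tbl1xr1* (a subunit of the NCoR corepressor), *Nuak1* (an AMPK-related kinase), *Btg1* (an antiproliferative protein) and *Pank3* (a pantothenate kinase of coenzyme A synthesis). Their members lay 37798 to 759355 bp from the start of the gene they were assigned to. All 5 assigned to *Pank3* were in fact inside *Slit3*, a guidance ligand, so that the nearest start is not always the start of the gene that holds the region. Territories of these 10 genes measured 225 to 2389 kb.

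Genes of the epithelium had members more often than protein-coding genes in general. In the list of epithelial junction and transition genes 9 of 32 had at least 1 member (28.1% against 10.8% of all protein-coding genes), and the median territory of the list was 49.1 kb, beside 47.5 kb for all. *Cdh1*, E-cadherin, had 2 members, one 3173 bp upstream of its start and one in its intron. The upstream one had peaks of 580 bp on Day1, 661 bp on Day2, 721 bp on Day3, 629 bp on Day6 and 596 bp on Day9, of which 487 bp were shared, and the nearest ESC peak was 2901 bp away. The intronic *Cdh1* member had 443 bp covered by 2 peaks on Day1 and peaks of 335, 653, 521 and 575 bp on the later days, and lay 272 bp from an ESC peak.

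The other epithelial genes with a member had 1 each. Among them were the grainyhead-like factors *Grhl1*, *Grhl2* and *Grhl3*, the tight junction gene *Cldn4*, the ETS factor *Ehf*, the adhesion gene *Epcam* and the membrane protease *St14*, at 11455 to 93312 bp from their starts. In the list of stratified epithelium genes 7 of 24 had a member (29.2%), at a median territory of 33.6 kb. Among these were the laminin gene *Lamb3*, the hemidesmosome integrins *Itgb4* and *Itga6*, the basal keratin *Krt5*, *Sfn* and the basal cell factor *Trp63*. The *Lamb3* member was the only TSS-proximal one of the list, 438 bp from the start, and its cover of 247 bp on Day1, 200 bp on Day2, 517 bp on Day3, 469 bp on Day6 (in 2 peaks) and 302 bp on Day9 had no base in common over all 5 days.

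The same lists were counted in the other classes. Of the epithelial junction and transition genes 6 of 32 were nearest to a region shared with Day0 (18.8% against 17.5% of all protein-coding genes), and of the stratified epithelium genes 6 of 24 (25%). To a region shared with ESCs 3 of the 32 (9.38% against 3.39% of all protein-coding genes) and 2 of the 24 (8.33%) were nearest, and to another transient region 22 of the 32 (68.8% against 47.8%) and 14 of the 24 (58.3%). The share of epithelial genes was thus above that of all genes in these classes too, though only slightly for the junction and transition genes with Day0. In the regions open in all 7 libraries it was below, at 4 of 32 (12.5%) and 5 of 24 (20.8%) against 40.3% of all protein-coding genes. No difference between classes was tested. Of the mesenchymal factor and matrix genes 10 of 30 had a member (33.3% against 10.8%) and 16 of 30 a region shared with Day0 (53.3% against 17.5%). Among the mesenchymal genes with a member were *Twist1* and *Twist2*, with 2 each in introns of the neighbouring histone deacetylase genes *Hdac9* and *Hdac4*, *Col6a1* and *Cdh11*. The median territory of the list was 171 kb, and 18.6% of all genes with territories of 100 to 200 kb had a member.

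Of 16 genes of AP-1 and related bZIP factors *Jun* alone had any member (6.25%, beside 10.8% of all protein-coding genes), and 9 of 16 (56.3%, beside 17.5%) were nearest to a region shared with Day0. The list of Runx, Tead and Cebp genes also holds the Tead coactivator *Yap1*. Of its 14 genes 2 had a member, *Runx1* and *Yap1* (14.3%), and 8 a region shared with Day0 (57.1%). Krüppel-like factor genes had members in 7 of 20 (35.0%), at a median territory of 207 kb. Of all genes with territories of 200 to 400 kb, 29.4% had a member. The Krüppel-like factor genes had 4 members at *Klf14*, 3 at *Klf3*, 3 at *Klf6* and 1 at each of the other 4 genes, among them *Klf9*. Sox genes had members in 7 of 19 (36.8%), at a median territory of 147 kb, with 3 at *Sox6*, of which 1 overlapped an exon, 2 at *Sox4* and 1 each at *Sox14* and *Sox5* and at the remaining 3 genes. For all genes with territories of 100 to 200 kb the share was 18.6%.

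Signalling genes followed. In the list of TGF-beta, Nodal and BMP genes 11 of 33 had a member (33.3%), with 2 each at the ligand *Tgfb2* and the receptors *Acvr2a* and *Tgfbr3*, and 1 in an intron of the receptor *Bmpr1a* with 638 shared bases. Wnt pathway genes had members in 10 of 39 (25.6%), with 3 at the ligand *Wnt5a*, 2 at *Tcf7l2*, and 1 each at *Lef1* and the receptor *Fzd8*. FGF and EGF pathway genes had members in 6 of 30 (20.0%), with 2 each at *Fgf9*, *Spry4*, *Dusp6* and *Spry2*, of which the last 3 are feedback inhibitors of the pathway. The median territories of these lists were 133 kb, 133 kb and 149 kb, and the share of all genes with territories of 100 to 200 kb that had a member was 18.6%.

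Of the genes listed under naive pluripotency, regulators and markers together, 3 of 22 had a member (13.6%, beside 10.8% of all protein-coding genes). These were *Fgf4*, *Nr5a2* and *Fbxo15*. The *Fgf4* member was annotated as exonic, 16761 bp from the start used here, and lay 2679 bp from an ESC peak. In a network of 9 regulators of reprogramming 2 had a member (22.2%). The one at *Tfap4*, a basic helix-loop-helix factor, began 71 bp upstream of its start and had 671 bp covered on Day1, 551 bp on Day2, 557 bp on Day3, 593 bp on Day6 and, by 2 peaks, 683 bp on Day9, with a Day0 peak 921 bp away. The one at *Gli2*, a Hedgehog effector, was intronic and 201050 bp from the start.

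For the remaining lists the counts were 1 of 24 neural and ectoderm genes (*Ncam1*), 1 of 14 trophoblast genes (*Elf5*), 3 of 16 markers of macrophages, endothelium and muscle (*Cdh5*, *Pax7* and *Tek*) and 4 of 14 p53 and senescence genes (*Gadd45a*, *Lmnb1*, *Ccng1* and *Cdkn1c*). As shares these are 4.17%, 7.14%, 18.8% and 28.6%, beside 10.8% of all protein-coding genes, and no test was made for any list.

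The cassette genes were examined because transgene copies of their exons map to the endogenous loci. No member overlapped an exon of *Pou5f1*, *Klf4*, *Sox2* or *Myc*, although 1 or 2 merged regions of other patterns did at each. Of the 4 genes, *Myc* was nearest to 4 members at 271371 to 478436 bp and *Sox2* to 1 at 299168 bp. *Col1a1*, which encodes the main chain of type I collagen and whose locus carries the cassette, had 2 members inside it. The one 605 bp downstream of its start, whose window with the KLF match is shown above, had peaks of 410 bp on Day1, 391 bp on Day2, 607 bp on Day3, 564 bp on Day6 and 576 bp on Day9 and lay 339 bp from a Day0 peak. The other overlapped an exon near the 3′ end and had peaks of 301, 500, 503, 585 and 605 bp, each wider than the one before.

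Of the 66 putative reprogramming-inducible enhancers listed by the study, 3 overlapped a member, near *Lefty1*, *Plekhh1* and *Sema4b*. Members were 2.84% of all merged regions and 65 of the 13768 TSS-proximal ones. The study chose the enhancers near gene starts and not among merged regions, so that neither share is a like baseline. The study took these enhancers from sites that the reprogramming factors also occupy in ESCs. It reports the *Lefty1* element as bound by Nanog in ESCs and annotated as ESC super-enhancer. The study also shows ATAC-seq tracks of this element in ESCs, which were not examined here. Beyond the missing peak call, openness of the element in the ESC library was not measured here. At *Lefty1*, an antagonist of Nodal, the member began 634 bp upstream of the start and had a peak of 230 bp on Day1 and of 676 bp on Day2, 732 bp on Day3, 623 bp on Day6 and 725 bp on Day9, so that its narrow Day1 peak set the shared stretch of 230 bp. The *Sema4b* member, in an intron of this semaphorin gene, had peaks of 559, 531, 493, 460 and 455 bp, each narrower than the one before, and shared 431 bp. The *Plekhh1* member had 300, 277, 221, 479 and 212 bp covered on these days and no base common to all, and a Day0 peak lay 264 bp away.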

How the data were processed

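ATAC-seq peak lists of 7 mouse libraries were used, 1 per time-point, grouped by the time-point in their labels. The deposited files list where each peak lies, by chromosome and by first and last position, and carry neither scores nor counts. Per the study's methods, the authors used Trimmomatic for trimming, Bowtie2 for alignment to mm10 and SAMtools and Picard to remove duplicates, downsampled all samples to a common depth that is not given in the sources used here, called peaks per library with MACS2 and made tracks with deepTools. The depth behind each peak is therefore unknown, and a missing peak is not a measured absence of open chromatin.

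Peaks that touched or overlapped were merged. The merging matched that of BEDTools 2.31.1 and recovered planted members in simulated peak lists. Members and gene lists were chosen with earlier results of these data known. Genes are those of GENCODE M21 on mm10 (GRCm38), with 1 start per gene, and each region was assigned to the nearest protein-coding start. Motifs were searched in 200 bp windows on both strands. The members named are the 10 with the longest stretch covered on all 5 days, those at putative enhancers of the study, at the cassette genes and at *Col1a1*, and the 5 closest to a Day0 or ESC peak. The genes named are the 10 with the most members and up to 4 per list with the most members; further genes of the 2 epithelial lists, and *Yap1*, *Runx1* and the TSS-proximal genes, complete a count or were chosen after their values were seen. The alternatives are given in the closing section. Members on unplaced scaffolds (2) have no position or window. The scripts ran in Python 3.11.15 with pysam 0.24.0 for sequence, scipy 1.17.1 for intervals, numpy 2.4.6, and matplotlib 3.10.9 for plots. A few genes of the lists are not reported here. ChIP-seq and expression data were not analysed here.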

Additional observations from a re-analysis of the deposited data

How the results depend on the processing

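No paired analysis was possible because there was a single library at every time-point. Of 75 alternative values for the results above, 55 stayed within their range. For the number of members and of genes, and for the width, that range is a factor of 1.5. For a share it is the 95% interval of the main value, and for the GC content 1 SD. Leaving a doxycycline day out of the rule gave between 3054 (without Day3) and 3920 members (without Day9). With peaks at least 300 bp wide, the number of members fell to 1700, that of genes with a member to 1473, the TSS-proximal share was 2.88% and the motif shares 15.9% for AP-1, 15.1% for KLF and 7.65% for OCT. Of these 1700 regions, 1259 overlap a member, and when every library kept its 27074 widest peaks, 1712 of 2427 regions do. That list gave shares of 3.26% TSS-proximal, 15.4% AP-1 and 6.30% OCT, and for both lists the cause was not tested. Their TSS-proximal intervals, 2.14 to 3.79 and 2.59 to 4.04, overlapped the 3.23 to 6.29 of the regions shared with ESCs under the main calls. The other classes were not recomputed for either list. A limit of 500 bp lowered the TSS-proximal share to 1.52%, and the starts of all genes, more numerous by construction, raised it to 6.29%. With the window on the region midpoint the shares were 14.6% for AP-1, 16.1% for KLF, 7.44% for OCT and 7.61% for SOX, and in 400 bp windows, which hold more sequence, 22.6%, 24.8%, 9.54% and 12.2%. Assignment by gene body plus 10 kb upstream gave 1553 genes. Merging within 300 bp, requiring a shared base, a distance over 500 bp to Day0 and ESCs peaks, and chromosomes 1 to 19, X and Y alone changed no value beyond its range. Without replicates, counts of reads or known depth, a missing peak cannot be told apart from one just under the calling threshold.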
